A study of Mus musculus with 2 samples.

Results

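NF-kB pathway and feedback genes were described by class of cell in the ear skin of mice with allergic contact dermatitis (ACD) and of control mice. The set held 10 genes of the 27998 listed in both count matrices, and every member was present by symbol and identifier in each of them. Inhibitors and feedback regulators were represented by Nfkbia, Nfkbiz, Tnfaip3 and Tnip1, subunits of the transcription factor by Nfkb1, Nfkb2 and Relb, and survival genes by Bcl2a1b, Bcl2a1d and Birc3. The members were chosen by name and not by a rule on a measured value, although earlier results of these data were known. Levels were read in CPM, that is, unique molecules (UMIs) of a gene per 1000000 molecules of all genes summed over the cells of a class.

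The series held single-cell RNA-seq of ICR mouse ear skin, with 1 library from healthy control mice and 1 library from mice with ACD elicited by 2,4-dinitrofluorobenzene (DNFB), a hapten that was painted first on the back and days later on the ears. Both groups were labelled as 7 to 8 weeks old, and the study's methods describe the treated animals as male. Each library was made from cells released by collagenase with dead cells removed, and the number of mice behind a library was not given in the sources used here. With 1 library a group there was no replicate spread, so no p-value is given, and each interval below is a 95% interval that covers counting error only.

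NF-kB is a family of transcription factors that is held in the cytoplasm by IkB proteins and enters the nucleus once kinases downstream of cytokine, Toll-like or antigen receptors mark the IkB protein for breakdown. Its targets include its own inhibitors, among them the IkB protein encoded by Nfkbia and the ubiquitin-editing enzyme A20 encoded by Tnfaip3, so that the pathway is shut off by its own products, and they also include genes that keep activated leukocytes alive. In skin the pathway acts in keratinocytes, stromal cells and infiltrating immune cells, and Nfkbia and Nfkbiz are also known to respond to the enzymatic release of cells from tissue.

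Promoter sequences are shown for the members that carried the narrower of both kB-type motifs searched, since these letters are the known binding pattern of the family. The 250 bases before each RefSeq start (build GRCm38.p6) were searched on both strands for GGGNNNNNCC, where N is any base, and for the narrower GGGNNTTNCC, which the wider motif contains; overlapping matches were all kept. Of the 10 members 7 had a promoter entry, the exceptions being Nfkbiz, Nfkb1 and Relb. The wider motif was found in 5 of these 7, against 45.8% of 32851 promoters, and the narrower motif in 4 of 7 (Nfkbia, Nfkb2, Tnfaip3 and Tnip1), against 4.11% of promoters. A member with several entries was counted once if any entry held the motif, whereas the background share was over single promoters. Capitals mark the narrower motif on either strand, read 5′ to 3′ on the strand of the gene. The Nfkbia stretch is chr12:55492648-55492897 on the minus strand, that of Tnip1 is chr11:54962941-54963190 on the minus strand, and that of Tnfaip3 is chr10:19015411-19015547 on the minus strand. The Nfkb2 stretches are chr19:46304688-46304717 and chr19:46304717-46304736 on the plus strand.
Nfkbia: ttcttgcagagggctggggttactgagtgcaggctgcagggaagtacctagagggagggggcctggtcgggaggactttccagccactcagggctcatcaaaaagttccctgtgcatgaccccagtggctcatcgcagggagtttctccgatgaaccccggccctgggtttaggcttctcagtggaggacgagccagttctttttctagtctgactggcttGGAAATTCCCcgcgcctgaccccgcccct
Tnip1: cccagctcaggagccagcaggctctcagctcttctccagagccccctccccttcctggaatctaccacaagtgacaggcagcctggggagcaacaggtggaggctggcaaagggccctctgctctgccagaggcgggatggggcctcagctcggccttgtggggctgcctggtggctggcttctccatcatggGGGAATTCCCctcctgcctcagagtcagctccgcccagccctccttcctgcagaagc
Tnfaip3: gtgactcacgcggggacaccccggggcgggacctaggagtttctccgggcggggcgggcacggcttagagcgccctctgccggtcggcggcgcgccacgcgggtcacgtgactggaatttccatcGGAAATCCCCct
Nfkb2, first stretch: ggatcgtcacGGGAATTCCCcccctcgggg
Nfkb2, second stretch: gggccgaaaGGGGCTTTCCC

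Counted from the RefSeq start, the Nfkbia motif lay at positions -29 to -20, that of Tnip1 at -57 to -48 and that of Tnfaip3 at -12 to -3. In Nfkb2 matches lay at -39 to -30 and, overlapping each other, from -11 to -1. A further Nfkb2 match, at -225 to -216 of another RefSeq start of the gene, is not shown. The Nfkbia and Tnip1 stretches lay outside the GENCODE gene models, whereas those of Tnfaip3 and Nfkb2 lay inside the longer GENCODE span of these genes. A match describes letters only and was not a measurement of binding.

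The promoters of Bcl2a1b and Bcl2a1d are shown because these were the members with the largest ratios between the libraries, and because their genes are near-identical copies. The Bcl2a1b stretch is chr9:89199023-89199208 on the plus strand and that of Bcl2a1d is chr9:88731915-88732100 on the minus strand, both from RefSeq on GRCm38.p6. Capitals mark the longest run shared by both copies, which was 84 bases.
Bcl2a1b: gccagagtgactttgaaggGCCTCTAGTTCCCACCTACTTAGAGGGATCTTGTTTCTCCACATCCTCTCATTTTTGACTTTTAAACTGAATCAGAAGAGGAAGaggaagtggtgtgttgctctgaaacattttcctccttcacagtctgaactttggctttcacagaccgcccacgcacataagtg
Bcl2a1d: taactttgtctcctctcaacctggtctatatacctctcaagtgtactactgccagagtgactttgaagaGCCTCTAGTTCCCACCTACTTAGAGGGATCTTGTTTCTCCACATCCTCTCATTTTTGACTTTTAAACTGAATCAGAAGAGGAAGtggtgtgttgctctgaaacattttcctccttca

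When these stretches were aligned, 135 of 142 aligned columns were identical, or 95.1%. Their transcripts were alike as well. Of the 60-base words in the last 300 bases of the Bcl2a1b transcript, the part that 3′ libraries read, 68.9% were also present in Bcl2a1d and 33.2% in Bcl2a1a, and Bcl2a1a shared 58.9% with Bcl2a1d. Reads from such stretches could not be given to 1 copy, so the level of each Bcl2a1 copy is uncertain, and the copies are best read together.

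With barcodes of 201 to 4999 genes, a mitochondrial share below 8% and no more than 25000 UMIs kept, 12213 control and 11665 ACD cells remained, with medians of 6850 and 7447 UMIs. The libraries shared 47 kept barcodes. Cells were put into 18 classes by marker genes, of which 13 had at least 30 cells in each library and were compared: 9 resident and 4 immune classes. In these 13 classes every marker of the class was above 0 in both libraries, except that the dendritic marker Xcr1 was at 0 in control macrophage/DC-like cells. Mixed barcodes made up 9.23% of control and 8.31% of ACD cells, and 20.3% and 17.9% met no gate. T-like cells were 4.72% of the control library and 23.7% of the ACD library.

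The first comparison asked which members differed by at least 2-fold between ACD and control in each class, where a gene was tested if it had at least 50 UMIs over both libraries and the fold was taken with 10 CPM added on each side. Of 130 pairs of a member and a class 88 were tested, 60 in resident and 28 in immune classes. In resident classes no pair was higher in ACD and 1 was lower. In immune classes 2 pairs were higher and none was lower. The higher pairs were Bcl2a1d in T-like and in macrophage/DC-like cells, and the lower pair was Nfkb1 in muscle satellite-like cells.

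**Figure D1:**
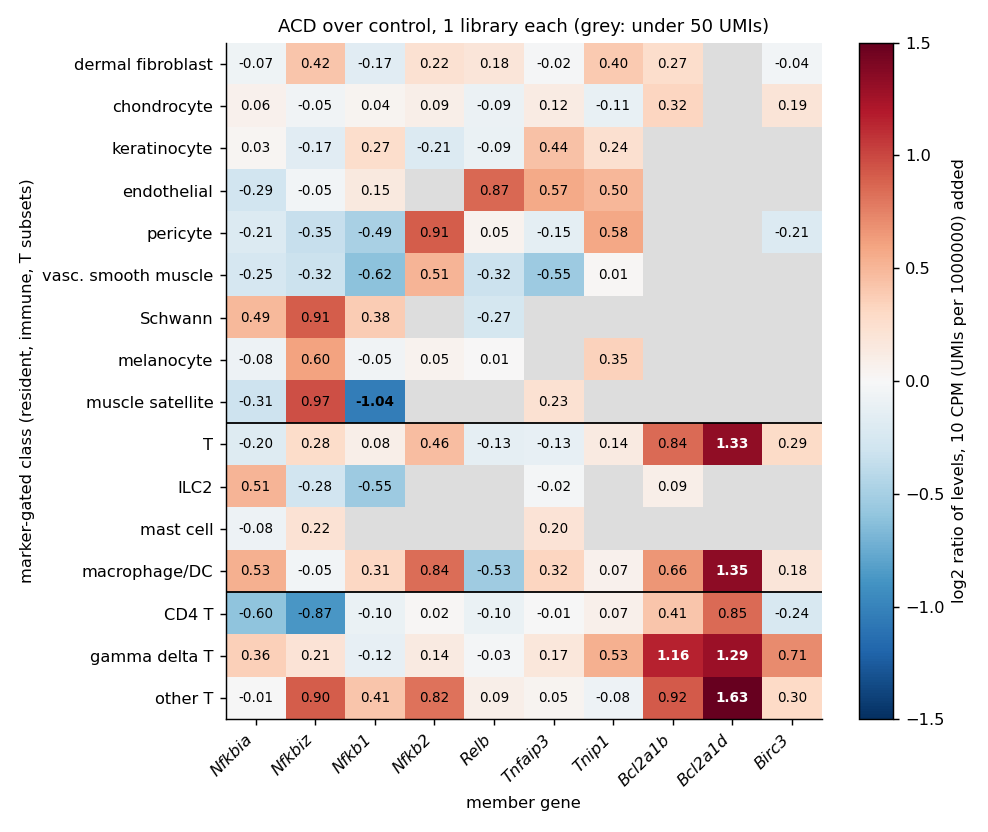
Log2 ratio of ACD over control for each of the 10 members (columns) in each compared class and T subset (rows), taken from levels in CPM with 10 added, with 1 library a group; grey cells had under 50 UMIs over both libraries and bold numbers passed 2-fold. Bcl2a1d stood at 1.33 in T, 1.35 in macrophage/DC and 1.63 in other T cells, and Nfkb1 at -1.04 in muscle satellite cells.

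Counts per class were read against the same rule applied to all genes of the class. In dermal fibroblast (dFB)-like cells 0 of 9 members tested passed in either direction, against 0.792% of genes higher and 0.114% lower. The count was again 0 of 9 in chondrocyte-like cells (background 0.304% higher and 0.00823% lower). Keratinocyte-like cells had 0 of 7 (1.64% and 0.338%), and endothelial-like cells 0 of 6 (2.95% and 1.11%). None of 8 passed in pericyte-like cells (1.59% and 0.747%), and none of 7 in vascular smooth muscle-like cells (0.719% and 0.953%). Schwann-like cells had 0 of 4 (2.1% and 0.144%) and melanocyte-like cells 0 of 6 (1.44% and 0.875%). In muscle satellite-like cells 0 of 4 was higher and 1 was lower, against 1.75% and 1.2% of genes. A count of 0 among so few members did not stand apart from these background shares.

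Among immune classes 1 of 10 members was higher in T-like cells, against 1.21% of all genes, and 0 was lower, against 1.46%. In macrophage/DC-like cells 1 of 10 was higher against 7.83%, and 0 was lower against 6.2%, a count near the background. ILC2-like cells had 0 of 5 in either direction (4.48% and 2.16%), and mast cell-like cells 0 of 3 (1.93% and 3.61%). Within T-like cells the gamma delta subset had 2 of 10 members higher, Bcl2a1b and Bcl2a1d, against 1.5% of genes, and 0 lower, against 0.957%. Over all kept cells 2 of 10 were higher, the same pair of copies, against 1.99% of 15356 genes, and 0 were lower, against 0.221%. The median ratio of the members tested was 0.21 over all kept cells, 0.18 in dFB-like, 0.06 in chondrocyte-like and 0.21 in T-like cells, while the medians of all genes there were -0.01, -0.01, -0.02 and -0.09. It lay below the median of all genes in vascular smooth muscle-like (-0.32 and -0.07) and pericyte-like cells (-0.18 and -0.06). The same held, by less, in ILC2-like and CD4 T-like cells. In the other compared classes and T subsets it lay above.

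Nfkbia (ENSMUSG00000021025, chr12:55489410-55492647, minus strand) encodes IkB alpha, the inhibitor that NF-kB itself induces. Its level over all kept cells was 2313 CPM in the control library and 2107 in the ACD library, a log2 ratio of -0.13 [-0.14, -0.13]. In dFB-like cells it was 2361 and 2255, and 92.7% and 92.5% of cells had a UMI once each cell was thinned to 2000 UMIs. In chondrocyte-like cells it was 2609 and 2721. The transcript was thus found in nearly all stromal cells of both libraries, with log2 ratios of -0.07 and 0.06.

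Among the other resident classes the control library was the higher one in endothelial-like cells, at 4230 and 3462 CPM of Nfkbia (-0.29 [-0.35, -0.23]). It was also higher in pericyte-like cells, at 2106 and 1825, and in vascular smooth muscle-like cells, at 1903 and 1601. Schwann-like cells went the other way, at 816 and 1148, or 0.49 [0.34, 0.64]. Keratinocyte-like cells (1365 and 1393) and melanocyte-like cells (959 and 907) had intervals of the ratio that included 0, and muscle satellite-like cells stood at 2363 and 1906.

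In immune classes Nfkbia was 1446 in control and 1260 in ACD T-like cells, or -0.20 [-0.25, -0.15], and 77.1% and 77.6% of thinned cells held a UMI. The T subsets did not share that direction: CD4 T-like cells stood at 1682 and 1106 (-0.60 [-0.76, -0.45], 36 control cells), gamma delta T-like cells at 1473 and 1888 (0.36 [0.27, 0.45]), and other T-like cells at 1368 and 1361. Macrophage/DC-like cells stood at 2240 and 3234 (0.53 [0.40, 0.67]) and ILC2-like cells at 1874 and 2673 (0.51 [0.33, 0.70]). None of these reached 2-fold. Mast cell-like cells, at 682 and 645, had the lowest level of the compared immune classes.

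Several immune classes had at least 30 cells in the ACD library alone, and there Nfkbia had its highest levels. Neutrophil-like cells held 9735 CPM [9249, 10239] over 64 cells and basophil-like cells 4874 [4717, 5035] over 170 cells. NK/ILC1-like cells stood at 1416, Treg-like cells at 1378, B-like cells at 1318 and CD8 T-like cells at 964. In the ACD library the order thus ran from neutrophil-like to basophil-like cells with intervals apart, while the intervals of NK/ILC1-like, Treg-like and B-like cells overlapped. The control library had 3 neutrophil-like and 3 basophil-like cells, so no ratio is given for these classes.

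**Figure D2:**
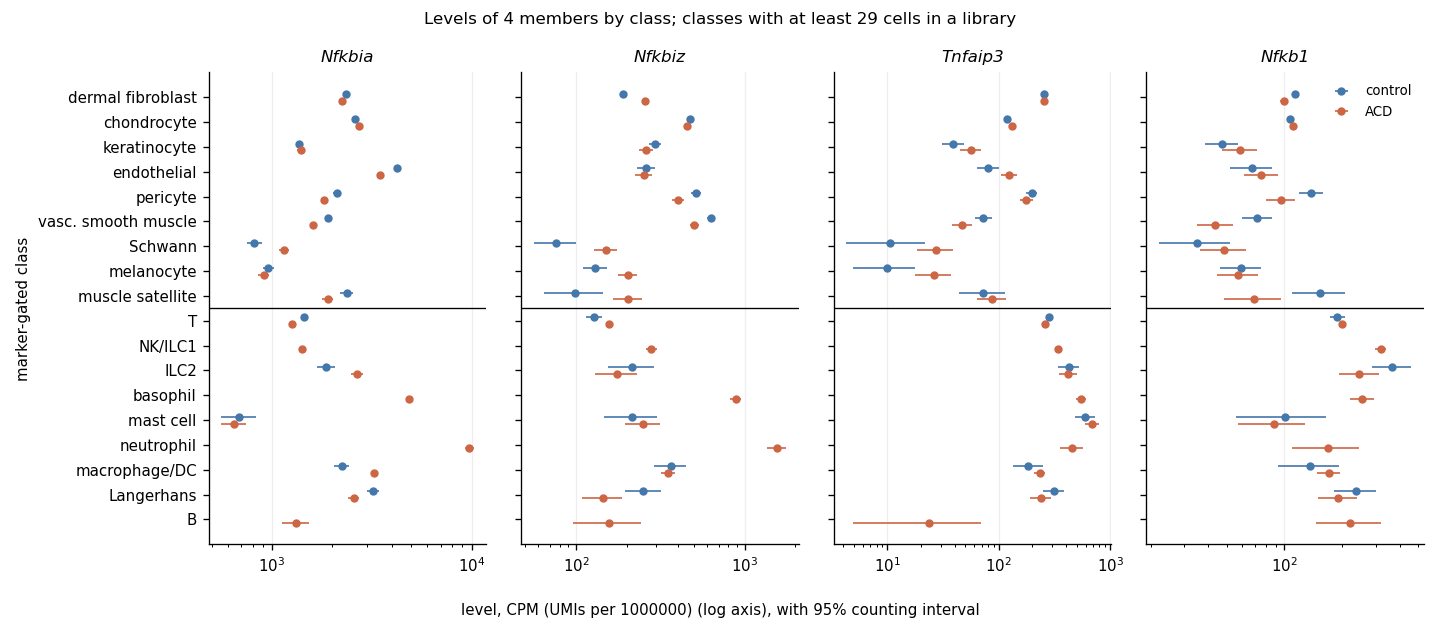
Levels of Nfkbia, Nfkbiz, Tnfaip3 and Nfkb1 in CPM on log axes, by class, in the control (blue) and ACD (orange) library, with 95% counting intervals; a class is drawn where it had at least 29 cells in the library. Nfkbia and Nfkbiz were highest in ACD neutrophil-like cells, at 9735 and 1550, and in dFB-like cells the libraries stood at 2361 and 2255 for Nfkbia and at 189 and 256 for Nfkbiz.

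Nfkbiz (ENSMUSG00000035356, chr16:55811375-55838899, minus strand) encodes the nuclear IkB zeta, a co-activator of a subset of NF-kB targets. Its level over all kept cells was 321 in control and 309 CPM in ACD. In dFB-like cells it was 189 and 256, or 0.44 [0.38, 0.49], and the thinned share of cells with a UMI was 28.7% and 35.5%. In chondrocyte-like cells it was 475 and 458. Of the stromal classes dFB-like cells thus had the higher value in ACD, and chondrocyte-like cells differed by -0.05.

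Mural cells had more Nfkbiz in the control library, at 631 and 504 in vascular smooth muscle-like cells and at 516 and 404 in pericyte-like cells. By contrast ACD was higher in Schwann-like cells, at 75.7 and 151 (0.99 [0.53, 1.48]), in melanocyte-like cells, at 130 and 203 (0.64 [0.34, 0.95]), and in muscle satellite-like cells, at 99.2 and 203 (1.04 [0.40, 1.72], from 26 and 103 UMIs). The satellite and Schwann values lay just under the 2-fold line once 10 was added, at 0.97 and 0.91. In T-like cells Nfkbiz was 128 and 157 (0.30 [0.13, 0.46]). Other T-like cells stood at 85.9 and 169, whereas CD4 T-like cells stood at 267 and 141, and 36.2% of the control UMIs of the latter came from 1 cell. In ACD neutrophil-like cells the level was 1550 [1360, 1759], in basophil-like cells 885 [819, 955] and in NK/ILC1-like cells 280, with intervals apart from each other.

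Immediate-early genes, which respond to tissue dissociation, were summed as a list of 12 in the same cells. The summed level was close between libraries in dFB-like cells (21862 in control and 22525 CPM in ACD) and in chondrocyte-like cells (28752 and 30818). It was lower in ACD in endothelial-like (31273 and 20091), pericyte-like (19694 and 14387), vascular smooth muscle-like (16941 and 11472) and T-like cells (9971 and 6373), and higher in Schwann-like cells (15910 and 20530). In these 5 classes the sum differed in the same direction as Nfkbia, and in pericyte-like, vascular smooth muscle-like and Schwann-like cells in the same direction as Nfkbiz, while the Nfkbiz interval included 0 in endothelial-like cells and Nfkbiz was higher in ACD T-like cells. In ILC2-like cells (11403 and 8197) and macrophage/DC-like cells (8077 and 7070) the sum was lower in ACD whereas Nfkbia was higher. Among T subsets it was lower in ACD in CD4 T-like cells (10647 and 5610), where Nfkbia and Nfkbiz were lower as well. The sum was also lower in gamma delta T-like cells (7722 and 7270), where Nfkbia was higher, and in other T-like cells (11209 and 7939), where Nfkbiz was higher. Over the 13 classes the log2 ratio of this sum had a correlation of 0.64 with that of Nfkbiz (Spearman 0.52) and of 0.37 with that of Nfkbia (Spearman 0.35), where the points share libraries and dissociation. The part of dissociation in the values of Nfkbia and Nfkbiz was not tested.

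Tnfaip3 (ENSMUSG00000019850, chr10:19000910-19015657, minus strand) encodes A20, which removes activating ubiquitin chains from signaling complexes upstream of NF-kB. Its level was 172 in control and 194 CPM in ACD over all kept cells. In dFB-like cells it was 256 and 253, with a log2 ratio of -0.02 [-0.07, 0.04], and in chondrocyte-like cells 119 and 131. A20 transcript thus stood at like levels in both libraries of dFB-like cells, with counting error alone considered.

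Endothelial-like cells had 79.7 and 123 CPM of Tnfaip3 (0.63 [0.23, 1.04]) and keratinocyte-like cells 39.0 and 56.3 (0.53 [0.08, 0.98]). Vascular smooth muscle-like cells had 72.6 and 46.6 (-0.64 [-1.04, -0.24]). Schwann-like and melanocyte-like cells held 37 and 42 UMIs of Tnfaip3 in all, under the minimum of 50, with levels of 10.6 and 27.4 in the former and of 9.92 and 26.1 in the latter. In immune classes T-like cells stood at 282 and 258, ILC2-like cells at 425 and 418, macrophage/DC-like cells at 184 and 232, and mast cell-like cells at 595 and 686 (0.21 [-0.16, 0.58]). Mast cell-like cells thus had the highest Tnfaip3 level of the compared classes in both libraries, although with 89 and 203 UMIs, and in ACD their interval overlapped that of basophil-like cells at 548. B-like cells in ACD stood at 23.7, from 3 UMIs.

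Tnip1 (ENSMUSG00000020400, chr11:54910785-54962917, minus strand) encodes ABIN-1, a ubiquitin-binding partner of A20. Over all kept cells it was 20.3 in control and 35.4 CPM in ACD (0.80 [0.72, 0.88]). In every compared class with at least 50 UMIs of Tnip1 the ratio was below that. dFB-like cells stood at 17.5 and 26.3 (0.58 [0.40, 0.77]), pericyte-like cells at 32.3 and 53.2 (0.72 [0.18, 1.28]) and gamma delta T-like cells at 52.2 and 79.7 (0.61 [0.15, 1.10]). Chondrocyte-like cells stood at 17.8 and 15.8 and T-like cells at 67.6 and 75.5, both with intervals of the ratio that included 0. T-like cells held 9.65% of all Tnip1 UMIs in the control and 42.1% in the ACD library, and the part of this change in the value over all cells was not tested. The highest ACD level among classes with at least 100 cells was in Treg-like cells, at 111.

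Of the subunits, Nfkb1 (ENSMUSG00000028163, chr3:135584655-135691547, minus strand) encodes p105, which is processed to p50. It was 110 in control and 134 CPM in ACD over all kept cells. In dFB-like cells the values were 113 and 99.2 (-0.19 [-0.27, -0.10]), in chondrocyte-like cells 107 and 111, and in T-like cells 189 and 201 (0.09 [-0.05, 0.22]). Pericyte-like cells had 138 and 95.4 (-0.53 [-0.86, -0.21]) and vascular smooth muscle-like cells 72.1 and 43.6 (-0.73 [-1.14, -0.32]). In resident classes the interval of the Nfkb1 ratio thus lay apart from 0 only where the ACD value was the lower one.

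Muscle satellite-like cells had 153 CPM of Nfkb1 in control and 69.1 in ACD, or -1.14 [-1.84, -0.45], which with 10 added (-1.04) was the single member ratio past 2-fold among those tested in resident classes. It rested on 40 and 35 UMIs from 56 and 95 cells, and 1 cell gave 25.0% of the control and 22.9% of the ACD UMIs. Without the top cell of each library it no longer passed. Among immune classes ILC2-like cells stood at 365 and 246 (-0.57 [-1.06, -0.07]), and ACD NK/ILC1-like cells at 317 [296, 340].

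Nfkb2 (ENSMUSG00000025225, chr19:46304320-46312385, plus strand) and Relb (ENSMUSG00000002983, chr7:19606217-19629438, minus strand) encode the subunits of the non-canonical pathway, p100/p52 and RelB. Nfkb2 was 15.3 in control and 23.9 CPM in ACD over all kept cells. Pericyte-like cells stood at 12.8 and 32.8 (1.36 [0.56, 2.22], from 19 and 45 UMIs) and vascular smooth muscle-like cells at 10.8 and 19.5 (0.86 [0.03, 1.73]). T-like cells stood at 22.4 and 34.6 (0.63 [0.25, 1.03]), and macrophage/DC-like cells at 21.9 and 47.2 from 5 control UMIs, with an interval of -0.19 to 2.78. The pericyte value dropped to 0.91 with 10 CPM added, under the 2-fold line. In mural cells the Nfkb1 and Nfkb2 ratios thus had opposite signs, with each interval apart from 0.

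Relb was 38.9 and 42.8 CPM over all kept cells. Endothelial-like cells had 25.6 in control and 54.8 in ACD (1.10 [0.42, 1.82], from 25 and 68 UMIs), which came to 0.87 with 10 added. Of the 10 leading genes of that class, Ccl21a, Mmrn1, Lyve1 and Flt4 are known from lymphatic endothelium. The others were Cldn5, Egfl7, Nts, Emcn, Lrg1 and Fabp4. Macrophage/DC-like cells had 101 and 66.6 (-0.60 [-1.28, 0.13]), and 34.8% of the control UMIs came from 1 cell. T-like cells stood at 59.4 and 53.2, and ACD B-like cells at 103 from 13 UMIs. Apart from endothelial-like and dFB-like cells (33.3 and 39.0, or 0.23 [0.09, 0.37]), the interval of the Relb ratio included 0 in every compared class.

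The survival genes Bcl2a1b (ENSMUSG00000089929, chr9:89199209-89207827, plus strand) and Bcl2a1d (ENSMUSG00000099974, chr9:88723285-88731914, minus strand) encode copies of A1, an inhibitor of apoptosis of the BCL2 family made by leukocytes. Over all kept cells Bcl2a1b was 20.8 in control and 149 CPM in ACD, a fold of 7.17 (log2 2.84 [2.77, 2.91]). Bcl2a1d was 6.83 and 78.9, a fold of 11.5 (log2 3.53 [3.41, 3.65]). T-like cells held 46.0% and 79.2% of the Bcl2a1b UMIs and 50.3% and 78.0% of those of Bcl2a1d, and the part of their larger number in both values was not tested.

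Within T-like cells Bcl2a1b was 329 in control and 599 CPM in ACD (0.86 [0.77, 0.96], a fold of 1.82), and the share of thinned cells with a UMI was 30.1% and 53.9% (41.8% and 74.4% before thinning). Bcl2a1d was 118 and 313 (1.40 [1.24, 1.57], a fold of 2.64), with thinned shares of 14.2% and 36.1%. In chondrocyte-like cells, which stood for background, the thinned share for Bcl2a1b was 0.0986% and 0.621%. The T-like values were thus far above that background in both libraries, and Bcl2a1d passed 2-fold while Bcl2a1b stood under it.

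The mix of T-like cells differed between the libraries: CD8 T-like cells numbered 13 in control and 680 in ACD and Treg-like cells 21 and 327. In each subset with at least 30 cells in both libraries the ACD level was the higher one. In the subsets with fewer control cells Bcl2a1b was lower in ACD, at 871 and 656 CPM in CD8 T-like and at 430 and 282 in Treg-like cells. Bcl2a1d stood at 393 and 358 in CD8 T-like cells. In Treg-like cells it stood at 28.7, from 3 UMIs, and 72.8. Gamma delta T-like cells, with 172 and 390 cells, had 400 and 904 CPM of Bcl2a1b (1.18 [1.02, 1.34]) and 166 and 418 of Bcl2a1d (1.34 [1.09, 1.59]). CD4 T-like cells had 478 and 639 of Bcl2a1b (0.42 [0.14, 0.72]) and 202 and 372 of Bcl2a1d (0.88 [0.45, 1.34]). Other T-like cells had 230 and 444 of Bcl2a1b (0.95 [0.78, 1.12]) and 70.1 and 238 of Bcl2a1d (1.76 [1.46, 2.08]). Which subsets make up the last group in each library is unknown, and a changed mix within it cannot be told apart from a changed level.

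**Figure D3:**
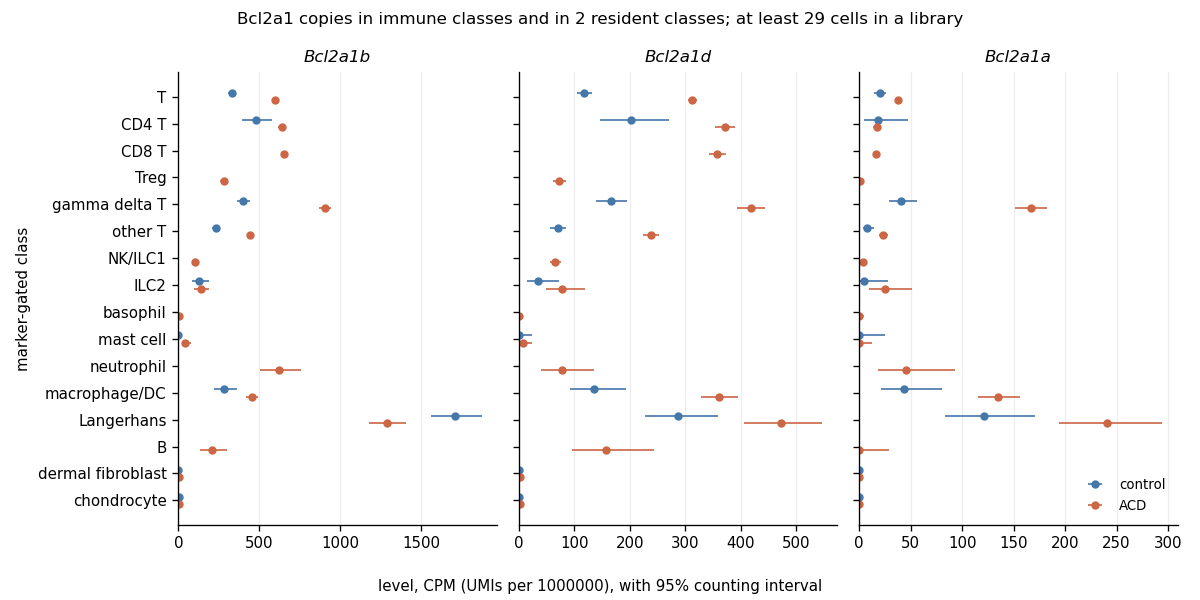
Levels of Bcl2a1b, Bcl2a1d and Bcl2a1a in CPM (linear axes that start at 0) in immune classes, T subsets, dFB-like and chondrocyte-like cells of the control (blue) and ACD (orange) library, with 95% counting intervals, for classes with at least 29 cells in the library. Gamma delta T cells stood at 400 and 904 for Bcl2a1b, Langerhans cells at 1712 and 1290, and basophils at 5.35 in ACD.

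Macrophage/DC-like cells, 32 in control and 135 in ACD, had 136 and 361 CPM of Bcl2a1d (1.41 [0.88, 1.98]) and 285 and 456 of Bcl2a1b (0.68 [0.31, 1.07]). A single control cell gave 41.9% of the 31 Bcl2a1d UMIs and 41.5% of the 65 Bcl2a1b UMIs. Without the top cell of each library the Bcl2a1d ratio was 2.02 in place of 1.41, and that of Bcl2a1b with 10 added was 1.26, past 2-fold. The make-up of this class differed between libraries. Its 8 macrophage markers summed to 5868 in control and 838 in ACD, and its 8 dendritic markers to 1205 and 967. The part of that difference in the Bcl2a1 ratios was not tested.

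Langerhans-like cells, 32 in control and 29 in ACD, had the highest Bcl2a1b level of any class with at least 29 cells, at 1712 [1560, 1875] and 1290 [1179, 1408] CPM, and they held 24.3% of the Bcl2a1b UMIs of the control library and 3.36% of those of the ACD library. Bcl2a1d stood there at 287 and 473. In ACD neutrophil-like cells Bcl2a1b was 620 and Bcl2a1d 77.5, and in CD8 T-like cells 656 and 358. Treg-like cells were lower, at 282 and 72.8, and NK/ILC1-like cells lower again for Bcl2a1b, at 105. Basophil-like cells stood apart from these leukocytes, with 4 UMIs of Bcl2a1b (5.35 CPM) and 0 of Bcl2a1d over 170 cells, which allows up to 4.01 CPM.

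Resident classes held few UMIs of either copy. Bcl2a1b was 0.381 in control and 2.51 CPM in ACD dFB-like cells, and 0.778 and 3.47 in chondrocyte-like cells. The 6 T markers summed to 4.89 and 13.4 in the same dFB-like cells and to 4.82 and 14.4 in the chondrocyte-like cells, so both sets of genes were higher there in ACD, and the part of free T-cell RNA in these Bcl2a1 values was not tested. In melanocyte-like cells 43 UMIs of Bcl2a1b were counted in ACD, and 93.0% of them came from 1 cell.

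The further copies Bcl2a1a (chr9:88956900-88962419) and Bcl2a1c (chr9:114330135-114330578) were read beside the members because they belong to the same set of copies. Bcl2a1a was 41.1 in control and 166 CPM in ACD gamma delta T-like cells (2.02 [1.53, 2.54]), 19.8 and 37.4 in T-like cells, and 43.8 and 135 in macrophage/DC-like cells. Bcl2a1c had 0 UMIs in the control and 7 in the ACD library. In gamma delta T-like cells the a, b and d copies were thus all at least 2-fold higher in ACD, with the level of each copy uncertain as given above.

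Birc3 (ENSMUSG00000032000, chr9:7848699-7873186, minus strand) encodes cIAP2, a ubiquitin ligase of tumor necrosis factor receptor complexes. It was 31.1 in control and 31.5 CPM in ACD over all kept cells, a ratio of 0.02 [-0.06, 0.09]. dFB-like cells stood at 44.9 and 43.4, chondrocyte-like cells at 25.7 and 30.7 (0.26 [0.10, 0.42]) and T-like cells at 19.4 and 26.0 (0.42 [0.01, 0.86]). Gamma delta T-like cells had 18.9 and 37.3 (0.98 [0.23, 1.82], from 17 and 101 UMIs), which came to 0.71 with 10 added. Its highest level was in ACD neutrophil-like cells, at 349 [262, 455], followed by B-like cells at 86.8. The Birc3 interval thus included 0 in dFB-like cells and lay above 0 in chondrocyte-like and T-like cells.

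A second comparison asked in which cells the UMIs of each member lay. In the control library dFB-like and chondrocyte-like cells together were the main holders of 8 members, and T-like cells of Bcl2a1b and Bcl2a1d. Of the 92188895 UMIs of all genes in kept control cells, dFB-like cells held 28845790 and chondrocyte-like cells 25722162. These classes thus held most UMIs of any kind, and the count of 8 was not read as a result about the members. For Tnfaip3 dFB-like cells held 46.6% of UMIs in control and 23.9% in ACD, and T-like cells 4.78% and 26.2%. For Nfkb1 the T-like share was 4.98% and 29.5%, for Nfkb2 4.25% and 28.6%, for Relb 4.43% and 24.5% and for Birc3 1.81% and 16.3%. Nfkbia and Nfkbiz had the smallest T-like shares in ACD, at 11.8% and 10.01%, and chondrocyte-like cells still held 31.3% of the Nfkbiz UMIs. Every member thus had a larger share in T-like cells in ACD, and T-like cells were 4.72% of cells in control and 23.7% in ACD. Of the UMIs of all genes, T-like cells held 2678366 of 92188895 in control and 19633339 of 99649023 in ACD.

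**Figure D4:**
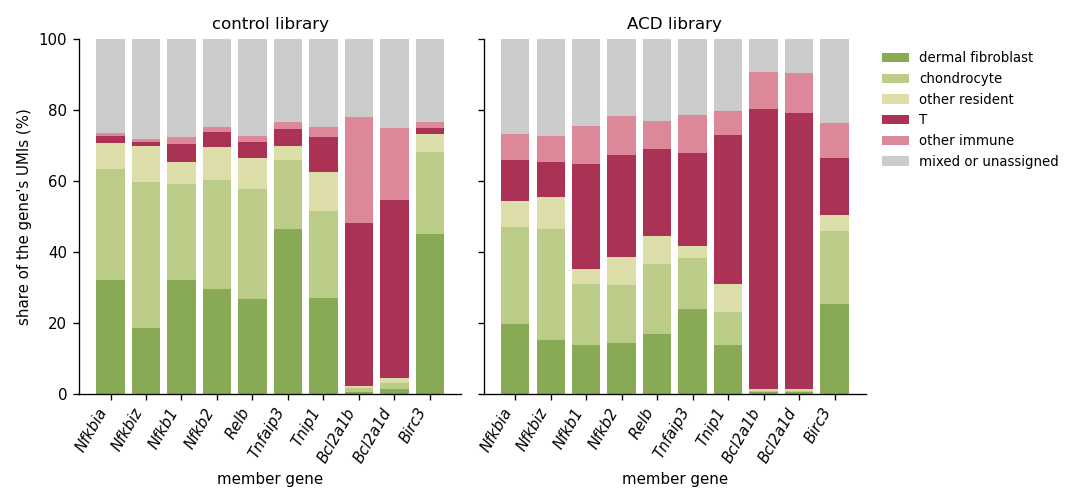
Share of each member's UMIs (%, stacked to 100) held by dFB, chondrocyte, other resident, T, other immune and mixed or unassigned cells in the control (left) and ACD (right) library. T cells held 46.0% of Bcl2a1b and 4.78% of Tnfaip3 in control, and 79.2% and 26.2% in ACD.

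The members were then set beside further genes of the pathway, in lists of subunits, IkB proteins, kinases and adaptors, receptors, feedback inhibitors, survival genes and textbook targets. Of the 5 core subunits 0 was higher in any compared class, and Nfkb1 in muscle satellite-like cells was the 1 that was lower. Of 7 IkB genes 1 was higher in T-like cells, Bcl3 (7.09 in control and 26.9 CPM in ACD), a nuclear IkB protein, against 1.21% of all genes. Of 23 kinases and adaptors 0 passed in T-like cells or in any resident class. In macrophage/DC-like cells 3 of 12 tested were higher, against 7.83% of all genes: Myd88 (17.5 and 71.2), Malt1 (30.7 and 84.4) and Irak2 (13.1 and 38.7). Control macrophage/DC-like cells numbered 32, and 3 UMIs came to 13.1 CPM there. The make-up of that class also differed between libraries, as given above. Of 12 feedback inhibitors 1 was lower in T-like cells (all genes 1.46%), Irak3 (44.1 and 9.73), an inhibitor of Toll-like and interleukin-1 receptor signaling, and 0 passed in any other of the 13 classes. Of 11 survival genes 1 of 10 tested was higher in T-like cells, the member Bcl2a1d, and 2 of 9 in macrophage/DC-like cells, Bcl2a1d and its copy Bcl2a1a.

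Of 12 receptors Cd40 was higher in macrophage/DC-like cells (43.8 and 103 CPM), 1 of 6 tested against 7.83% of all genes, and Cd14 was lower in vascular smooth muscle-like cells (593 and 291), 1 of 6 against 0.953%. Among 16 textbook targets 1 of 12 tested passed in dFB-like cells, against 0.792% of all genes, namely the chemokine Ccl5 (0.173 and 17.4). In chondrocyte-like cells 1 of 11 passed, against 0.304%, the neutrophil chemokine Cxcl2 (4.94 and 22.9). In endothelial-like cells 2 of 9 were higher, against 2.95%, the adhesion molecule Vcam1 (4.09 and 66.1) and the prostaglandin synthase Ptgs2 (6.13 and 38.7). T-like cells had 2 of 14, against 1.21%, Ccl5 (61.6 and 1024) and the growth factor Csf2 (15.3 and 63.7). Single targets were also higher in keratinocyte-like cells, Ccl20 (8.18 and 41.6, 1 of 5 against 1.64%), in pericyte-like cells, Tnfaip2 (15.5 and 41.5, 1 of 7 against 1.59%), and in macrophage/DC-like cells, Ptgs2 (149 and 680, 1 of 10 against 7.83%). Cxcl2 was lower in mast cell-like cells (207 and 64.2, 1 of 4 against 3.61%). In ILC2-like cells 1 of 5 was higher, Ccl5 with 0 control UMIs and 243 CPM in ACD, and 1 was lower, Tnf (195 and 89.2), against 4.48% and 2.16%. Ccl5 was also higher in ACD chondrocyte-like cells (0.0778 and 9.31), though under 2-fold with 10 CPM added. The part of free T-cell RNA in the Ccl5 values of both stromal classes was not tested. In several classes where no inhibitor or subunit among the members passed, 1 or 2 targets thus did, which describes these single genes only. In vascular smooth muscle-like, Schwann-like and melanocyte-like cells neither these members nor any target passed, with 8, 3 and 4 targets tested.

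The genes whose pattern was most like each member were searched among 8409 genes by the correlation of log2 levels. The 31 levels used were those of each class with at least 30 cells in a library, with T subsets left out. Bcl2a1b and Bcl2a1d were nearest to each other (0.96), and they share transcript sequence as given above. Next came Cd52 (0.90) for the former and Epsti1 (0.90) for the latter. Nfkb1 was most like Limd2 (0.85) and Hmha1 (0.84), Tnip1 like Amica1 (0.83) and N4bp1 (0.81), Birc3 like Sorl1 (0.80) and Il17ra (0.76), and Tnfaip3 like Elf4 (0.80) and Rgs19 (0.75). Nfkbia was most like Carhsp1 (0.79) and Vsir (0.79), Nfkb2 like Sft2d1 (0.78) and Rab8a (0.73), Nfkbiz like Cd14 (0.75) and Anxa3 (0.75), and Relb like Ccr7 (0.75) and Cd83 (0.73). The points share 2 libraries, depth and free RNA.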

How the data were processed

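Droplet-based single-cell libraries of control and ACD ear skin were deposited by the authors as raw UMI counts per gene and barcode. Per the labels and the submitters' processing notes, these counts were made with Cell Ranger 3.1.0 on mm10, and no normalization had been applied. The deposited matrices held 12895 control and 13163 ACD barcodes with 99037698 and 126566870 UMIs. Barcodes were kept when they had 201 to 4999 genes, a mitochondrial share below 8% and no more than 25000 UMIs. The UMI limit of the study's methods was read as an upper limit, and more cells were kept here than the study used after it also discarded outliers by limits not given in its methods. The members and gene lists were chosen with earlier results of these data known.

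Each kept cell was gated on marker UMIs: it entered a class when its score was at least 0.35 (0.12 for macrophage/DC-like cells), with at least 3 markers and no rival class at over 0.6 of that score, each score taken relative to its own limit. These limits were set after the marker scores, but not the members, had been seen. Classes were called "-like", and T-like cells were split by subset markers. Doublets were handled by leaving out barcodes with a rival class above that share, called mixed. T-like, NK/ILC1-like and ILC2-like cells were not counted as rivals of each other, nor were pericyte-like and vascular smooth muscle-like cells. Scrublet called 4.68% of control and 3.29% of ACD cells, which were left out in an alternative only. Levels are UMIs of a gene per 1000000 UMIs of the class (CPM), with exact Poisson intervals. Log2 ratios have exact conditional binomial intervals, and shares of cells have Clopper-Pearson intervals. For shares, each cell was thinned to 2000 UMIs, which left out 19 control and 46 ACD T-like cells and 6 and 4 chondrocyte-like cells. Genes were counted past a fold of 2 with 10 CPM added and at least 50 UMIs. A gene with 0 UMIs was given the limit of 3 UMIs.

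Named genes were the 10 members, the 6 list genes past the fold in the most classes, the 2 genes most like each member among those with at least 2000 UMIs, and the Bcl2a1 copies; other list genes past the fold were named after their values were seen. Ratios were checked on simulated counts with known folds. The alternatives concerned the filter, doublets, gates, clustering, cell weights, depth, scaling, pseudocount, minimum and fold. Python 3.11.15, numpy 2.4.6, pandas 2.3.3, scipy 1.17.1, scanpy 1.11.5 and igraph 0.11.9 were used.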

Additional observations from a re-analysis of the deposited data

How the results depend on the processing

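No paired analysis was possible because each group has 1 library. No member ratio that was past 2-fold as reported changed sign under any alternative that gave a value. Smaller ratios did change sign: 110 of 123 kept it with Leiden clusters and 107 of 119 with the stricter gate. The count of members higher in resident classes, 0 as reported, became 1 with at least 500 genes and under 5% mitochondrial UMIs, with cells thinned, with median-of-ratios scaling and with a minimum of 20 UMIs. It became 2 with all deposited barcodes and with a minimum of 1 UMI, 3 with Leiden clusters, and 5 with 1 CPM added or a fold of 1.5. The count lower in resident classes, 1 as reported, became 0 with all deposited barcodes, stricter or looser gates, Leiden clusters, cells thinned, median-of-ratios scaling, and the top cell of a member left out, an alternative chosen after seeing the data. It became 3 with a minimum of 1 UMI and 2 with a fold of 1.5. The count higher in immune classes, 2 as reported, became 1 with at least 500 genes and under 5% mitochondrial UMIs, where macrophage/DC-like cells had under 30 control cells, 3 with cells thinned, cells weighted equally, 1 CPM added and median-of-ratios scaling, 4 with Leiden clusters, with the top cell left out and with a minimum of 1 UMI, and 5 with a fold of 1.5. Median-of-ratios scaling moved a ratio by at most 0.19, but other alternatives moved single ratios further. The largest change was 1.72 with cells thinned, 1.19 with Scrublet calls left out and 1.02 with Leiden clusters. The median change ran from 0.02 with a looser gate to 0.15 with cells thinned. With cells thinned, 33 of 127 ratios left their intervals and 101 kept their sign. Bcl2a1d stayed at 1.32 to 1.82 in T-like cells over 10 settings, and Bcl2a1b passed 2-fold there with Leiden clusters (1.28) and with median-of-ratios scaling (1.03). Nfkb1 in muscle satellite-like cells ranged from -1.37 to -0.71. When cells were thinned to 1000 UMIs, 128 of 340 shares stayed within their intervals. A smaller draw by itself lowers the share of cells with a UMI, so this count does not measure stability. The causes of the other changes were not tested. With 1 library a group, depth limits the low members most: 42 of 130 pairs had under 50 UMIs.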

Other observations

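Among the list genes named by rule, Cxcl2, a neutrophil chemokine, differed in direction between classes. Pericyte-like cells had 160 CPM of Cxcl2 in control and 117 in ACD, endothelial-like cells 86.9 and 54.0, dFB-like cells 30.9 and 54.9, and macrophage/DC-like cells 1240 and 2048. Ptgs2 stood at 60.3 and 87.9 in dFB-like cells and at 18.2 and 42.3 in chondrocyte-like cells. Ccl5 was at 0 UMIs in control ILC2-like cells and at 243 CPM in ACD, and at 1416 and 706 in macrophage/DC-like cells. Il17f, a cytokine known from other lymphocytes as well, was among the leading genes of ILC2-like cells. The heat-shock list of 6 genes summed to 4456 in control and 6295 in ACD dFB-like cells and to 2183 and 5429 in macrophage/DC-like cells.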
